A study of Mus musculus with 6 samples.

Results

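A set of 10 genes that encode lipid- and bile-sensing nuclear receptors and close relatives were followed through lists of peaks of acetylated lysine 9 of histone H3 (H3K9ac). These were Rxra, Nr1h4, Nr1h3, Ppara, Ppard, Pparg, Vdr, Nr5a2, Esrra and Nr3c1, picked out by gene name. An interval, that is 1 called peak region of 1 library, was counted for a receptor gene when the gene name that the authors attached to it was that receptor, whatever its class (promoter, exon, intron, upstream or intergenic). This gave 97 of the 42851 intervals of the lists, and all 10 receptor genes were among the 9700 protein-coding genes with an interval in at least 1 list (21900 protein-coding genes were in the annotation). None of the 97 intervals (0) carried a second gene's name.

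The chromatin was taken from the epithelium of the distal intestine, and the strain was C57BL/6. Germ-free mice have no microbes, mice monoassociated with E. coli carry that bacterium alone, and conventionally housed mice carry an ordinary microbiota. Each of the 3 groups had 2 libraries, and the labels named no genotype, age or further treatment. The labels do not say if a group's 2 libraries are from different mice, and their spread may be technical.

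Nuclear receptors are transcription factors whose activity depends on small fat-soluble ligands. RXRα, the product of Rxra, is the shared partner with which the PPARs (fatty acids), the LXRs (oxysterols), FXR (bile acids) and VDR (vitamin D) bind DNA as heterodimers. LRH-1, encoded by Nr5a2, and ERRα, encoded by Esrra, can bind an extended half-site as single proteins, and the glucocorticoid receptor, encoded by Nr3c1, binds as a homodimer. In the distal intestine FXR is known for sensing bile acids that are taken up again there, and the PPARs for genes of fatty acid use. H3K9ac marks the promoters of active genes and tends to lie beside a start site, on the nucleosomes that flank it.

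The promoters of the 4 receptor genes with an interval within 1 kb of the start site in the most libraries are shown first. They differ widely in base composition, while all 4 genes had called H3K9ac within 1 kb of a start site. No interval overlapped the printed sequences themselves. Each window runs from 250 bases before to 50 bases after a start site, 5′ to 3′ on the gene's strand, from RefSeq on GRCm38.p6, the assembly of mm10. CpG dinucleotides are in capitals.
Nr1h4 (chr10:89506609-89506908, minus strand): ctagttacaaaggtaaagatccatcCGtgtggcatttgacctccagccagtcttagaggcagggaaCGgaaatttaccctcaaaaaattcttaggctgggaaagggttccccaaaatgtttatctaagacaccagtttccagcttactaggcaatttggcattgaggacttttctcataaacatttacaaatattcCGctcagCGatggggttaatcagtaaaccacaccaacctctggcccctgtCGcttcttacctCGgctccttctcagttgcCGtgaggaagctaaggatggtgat
Rxra (chr2:27676951-27677250, plus strand): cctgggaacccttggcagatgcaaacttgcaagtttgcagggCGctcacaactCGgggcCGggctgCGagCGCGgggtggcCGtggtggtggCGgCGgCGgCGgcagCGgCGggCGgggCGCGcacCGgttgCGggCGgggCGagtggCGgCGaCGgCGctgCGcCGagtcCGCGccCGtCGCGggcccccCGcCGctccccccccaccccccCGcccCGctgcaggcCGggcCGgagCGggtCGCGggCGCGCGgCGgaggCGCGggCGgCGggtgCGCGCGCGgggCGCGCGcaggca
Ppard (chr17:28232504-28232803, plus strand): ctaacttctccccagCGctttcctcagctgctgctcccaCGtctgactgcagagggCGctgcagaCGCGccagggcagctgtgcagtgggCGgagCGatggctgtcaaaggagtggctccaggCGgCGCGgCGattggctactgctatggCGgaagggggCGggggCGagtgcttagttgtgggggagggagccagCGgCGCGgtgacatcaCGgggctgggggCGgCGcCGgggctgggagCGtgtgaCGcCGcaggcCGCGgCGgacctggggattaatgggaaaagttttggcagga
Nr5a2 (chr1:136960399-136960698, minus strand): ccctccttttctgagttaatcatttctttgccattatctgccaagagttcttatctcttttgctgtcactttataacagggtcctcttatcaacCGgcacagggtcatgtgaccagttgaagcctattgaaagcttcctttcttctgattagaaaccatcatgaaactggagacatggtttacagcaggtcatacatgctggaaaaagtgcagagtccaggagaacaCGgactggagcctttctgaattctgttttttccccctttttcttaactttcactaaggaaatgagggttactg

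The Rxra window held 55 CpG dinucleotides and 83.0% G and C, and its observed-to-expected CpG ratio of 1.08 was at or above that of 96.5% of 21263 promoter windows of protein-coding genes. The Ppard window held 27 CpG dinucleotides and 68.3% G and C, with a ratio of 0.826 (percentile 74.9). The Nr1h4 window held 7 and 45.7%, with a ratio of 0.449 (percentile 42.4), and the Nr5a2 window held 2 and 42.0%, with a ratio of 0.152 (percentile 16.7). The median window had 13 CpG dinucleotides, 56.3% G and C and a ratio of 0.567, so Rxra and Ppard lay above it and Nr1h4 and Nr5a2 below it. The second annotated start of Nr5a2 that the lists used was also below the median, at 0.412, and Nr1h3 was at 0.394. Between these values lay Vdr at 0.546, Ppara at 0.736 and Esrra at 0.781.

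In all, the table gave 14 windows for 9 of the receptor genes and none for Nr3c1. The receptor half-site AGGTCA, searched on both strands, was in 5 of the 14 (the printed windows of Nr1h4 and Nr5a2, a second Rxra window and 2 of Pparg), against 14.7% of all windows. Those Rxra and Pparg windows belong to start sites that the lists did not use. The extended half-site TCAAGGTCA, which contains AGGTCA, was in 0 of the 14 and in 0.334% of all windows. The GC box GGGCGG was in 7 of the 14 and in 46.2% of all windows, and TATAAA was in 2 of the 14 and in 12.6% of all windows. These matches describe the letters of the windows only.

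The 6 lists differed in length, from 870 intervals in E. coli-monoassociated replicate 2 to 17094 in germ-free replicate 2, and replicate 2 of the conventional group held 15352. Each list had its own lowest fold, between 3.62 and 4.28, and weaker enrichment was not listed, so a receptor gene without an interval may still carry the mark. Pileup (the number of extended reads stacked at a summit) and fold are therefore given as values within a list, and libraries are compared by calls. The pileups of germ-free replicate 2 were inferred from its fold values. Of the 10 epithelial marker genes, 8 had an interval in all 6 lists, and the others were missing from at least 1. Of 10 immune markers 2 had an interval in any list (Cd14 and Itgam), as did 2 of 10 stromal, endothelial, muscle and nerve markers (Cdh5 and Pecam1, neither within 1 kb of a start site). In chromatin of mixed cells, fewer cells with the mark and less mark per cell cannot be told apart.

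Receptor genes were called most often in the conventional libraries and least often in the E. coli-monoassociated ones. In the conventional libraries 8 (replicate 1) and 10 (replicate 2) of the 10 had an interval, where 10.6% and 37.5% of all protein-coding genes had one. Germ-free replicates 1 and 2 had 6 and 9 of the 10, against 14.4% and 34.6% of all genes. In E. coli-monoassociated mice 3 and 2 of the 10 did, where 6.45% and 2.58% of all genes did. The group means were 9 ± 1.41 receptor genes (SD, n = 2), 7.5 ± 2.12 and 2.5 ± 0.707 in that order, and the germ-free and conventional values overlapped while both E. coli-monoassociated values lay below the other 4. The share of all genes was also lowest in the 2 E. coli-monoassociated lists. When the 870 most significant intervals of each list were kept, 1 (Ppard) and 0 receptor genes were called in the germ-free libraries, where 3.03% and 3.52% of all genes were. At that length E. coli-monoassociated mice had 0 and 2 (Rxra and Nr1h4), against 2.71% and 2.58% of all genes, and conventional mice had 4 and 5, against 3.15% and 3.65%. At equal list length the E. coli-monoassociated counts were thus no longer below the germ-free ones, and both conventional counts were above the other 4. The cut kept the whole list of E. coli-monoassociated replicate 2 and was stricter in the longer lists. Nr1h4 stayed in E. coli-monoassociated replicate 2 at a −log10 q of 3.59 and dropped out of germ-free replicate 2 at 10.5. Ppard, Rxra and Esrra were the receptor genes called in both conventional libraries at that length. With 2 libraries against 2 an exact permutation test cannot give a two-sided p below 0.333, so none was run on these counts.

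**Figure D1:**
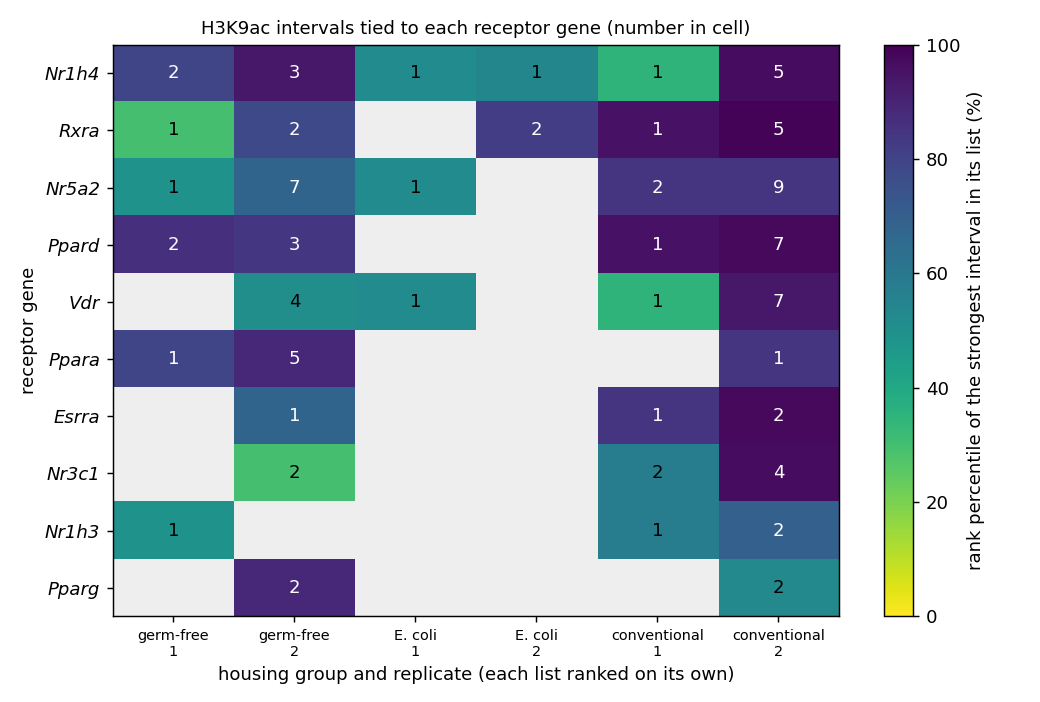
Called H3K9ac intervals of the 10 receptor genes (rows) in each of the 6 libraries (columns). Each number is the count of intervals of that gene in that library's list, the shading is the rank percentile of the strongest of them within its own list, and an empty cell is a gene with no interval; the 2 E. coli-monoassociated columns hold 3 and 2 genes, and the row of Nr1h4 is filled in all 6 columns.

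Counted within 1 kb of a start site alone, 4 and 7 receptor genes were called in germ-free mice (11.0% and 29.6% of all genes), 1 and 2 in E. coli-monoassociated mice (4.21% and 1.87%), and 5 and 9 in conventional mice (9.08% and 32.8%). The 97 intervals were 42 of the promoter class, 42 intronic, 7 upstream, 3 exonic and 3 intergenic. In the whole lists the promoter class made up between 50.6% (E. coli-monoassociated replicate 1) and 73.0% (conventional replicate 1) of intervals. Of the 97, 73 came from the 2 longest lists, germ-free replicate 2 and conventional replicate 2, and so did 34 of the 42 intronic ones. Those 2 lists held 17094 and 15352 of all 42851 intervals, so the 73 are near the share of all intervals. Pileups ran from 4 to 19 extended reads with a median of 7, and 25 of the 97 intervals stood at the lowest pileup of their list or 1 read above it.

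Rxra, the shared heterodimer partner, had an interval in 5 of 6 libraries. Its highest pileup was 7 extended reads in germ-free replicate 1 (4.62-fold over background) and 9 in replicate 2 (6.33-fold). It was 10 in E. coli-monoassociated replicate 2 (7.84-fold), 13 in conventional replicate 1 (9.91-fold) and 19 in conventional replicate 2 (14.5-fold), and E. coli-monoassociated replicate 1 listed none. The pileup of 19 has a 95% exact Poisson interval of 11.4 to 29.7, and that of 7 one of 2.81 to 14.4; such intervals cover counting error only. Within its list the Rxra interval of conventional replicate 2 ranked at or above 98.9% of intervals, that of conventional replicate 1 at or above 95.3%, and that of germ-free replicate 1 at or above only 29.4%.

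Merged over libraries, the intervals just downstream of the Rxra start site (chr2:27677201, plus strand) formed 1 region, chr2:27677426-27678614, with intervals of all 5 libraries. Merging joins overlapping intervals in a chain, so libraries with intervals in a region need not share a position. Here the intervals of germ-free replicates 1 and 2 did not overlap, and no position was called in all 5 libraries. The region begins inside the first kilobase and ends in an intron by the authors' classes. The interval of germ-free replicate 1 was the distal end of the region alone, 1081 bp from the start site, and was classed as intronic. Germ-free replicate 2 and conventional replicate 2 also listed an interval upstream of the start site, at 410 and 595 bp, so that called acetylation flanked the start site in those libraries. In these same libraries the interval downstream began 256 and 225 bp from it. Conventional replicate 2 held 2 further intergenic intervals 137030 and 136552 bp upstream (chr2:27539842-27540171 and chr2:27540498-27540649, pileup 7 each) that the authors tied to Rxra.

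Nr1h4, which encodes the bile acid receptor FXR, had an interval in all 6 libraries. Its highest pileup was 10 and 13 extended reads in the germ-free libraries (6.35- and 8.87-fold), 8 and 7 with E. coli alone (5.33- and 5.70-fold), and 6 and 14 in conventional mice (4.95- and 10.9-fold). The 95% exact Poisson intervals are 2.2 to 13.1 for a pileup of 6 and 7.65 to 23.5 for 14. Those pileups come from different positions and different lists, so their intervals do not show if the conventional replicates agree. A merged region from 60 bp downstream of the start site chr10:89506658 (chr10:89505901-89506598) held intervals of 5 libraries. Conventional replicate 1 was the exception. The intervals of E. coli-monoassociated replicates 1 and 2 in that region did not overlap, so no position was called in all 5 libraries.

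Conventional replicate 1 instead listed Nr1h4 at 1043 bp from that start site, classed as intronic and 1 read above the lowest pileup of its list. That interval falls in a region next to the first, chr10:89505172-89505803, which germ-free replicate 2 and conventional replicate 2 shared. These 2 libraries also listed intervals at a second, upstream start site, chr10:89533622. In germ-free replicate 2 it was 1 interval of 964 bp (pileup 8), the widest of the 97, and in conventional replicate 2 there were 3 intervals with a pileup of 5 each. The low-CpG window printed above for Nr1h4 belongs to the first start site, where the call was made in 5 libraries.

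Nr5a2 encodes LRH-1, a receptor with roles in bile acid and steroid synthesis and in intestinal crypts, and it held the most intervals of the 10 genes, 20 over 5 libraries. Germ-free replicate 1 listed 1 (pileup 8), germ-free replicate 2 listed 7 (highest 8), E. coli-monoassociated replicate 1 listed 1 (pileup 8), conventional replicate 1 listed 2 (highest 9) and conventional replicate 2 listed 9 (highest 9). The strongest interval of each of these lists was 5.19-, 5.70-, 5.33-, 7.08- and 7.24-fold over its own background, in that order. Of the 7581 protein-coding genes with an interval in germ-free replicate 2, 4.25% had 7 or more, and of the 8212 in conventional replicate 2, 0.718% had 9 or more.

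Most Nr5a2 intervals lay in its introns, in a cluster between chr1:136946071 and chr1:136949406 on the minus strand. This cluster is downstream of both start sites that the lists used (chr1:136953630 and chr1:136960448). Within it, the merged region chr1:136948123-136948549 held intervals of 4 libraries, with 1 or 2 of each group. The interval of conventional replicate 1 there overlapped neither that of E. coli-monoassociated replicate 1 nor that of germ-free replicate 2. The neighbouring chr1:136947698-136948080 was called in both germ-free libraries and in none of the other 4. It lies directly beside the region with intervals of 4 libraries, so the difference may rest on where intervals were cut. At the distal start site chr1:136960448, whose window had 2 CpG dinucleotides, an interval just downstream (chr1:136959903-136960331) was called in both conventional libraries, with pileups of 8 and 9. Germ-free replicate 2 listed an interval 867 bp downstream of that start site. No interval lay within 1 kb of either start site in germ-free replicate 1 or E. coli-monoassociated replicate 1. How often regions of all genes were called in both libraries of a single group alone was not counted.

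**Figure D2:**
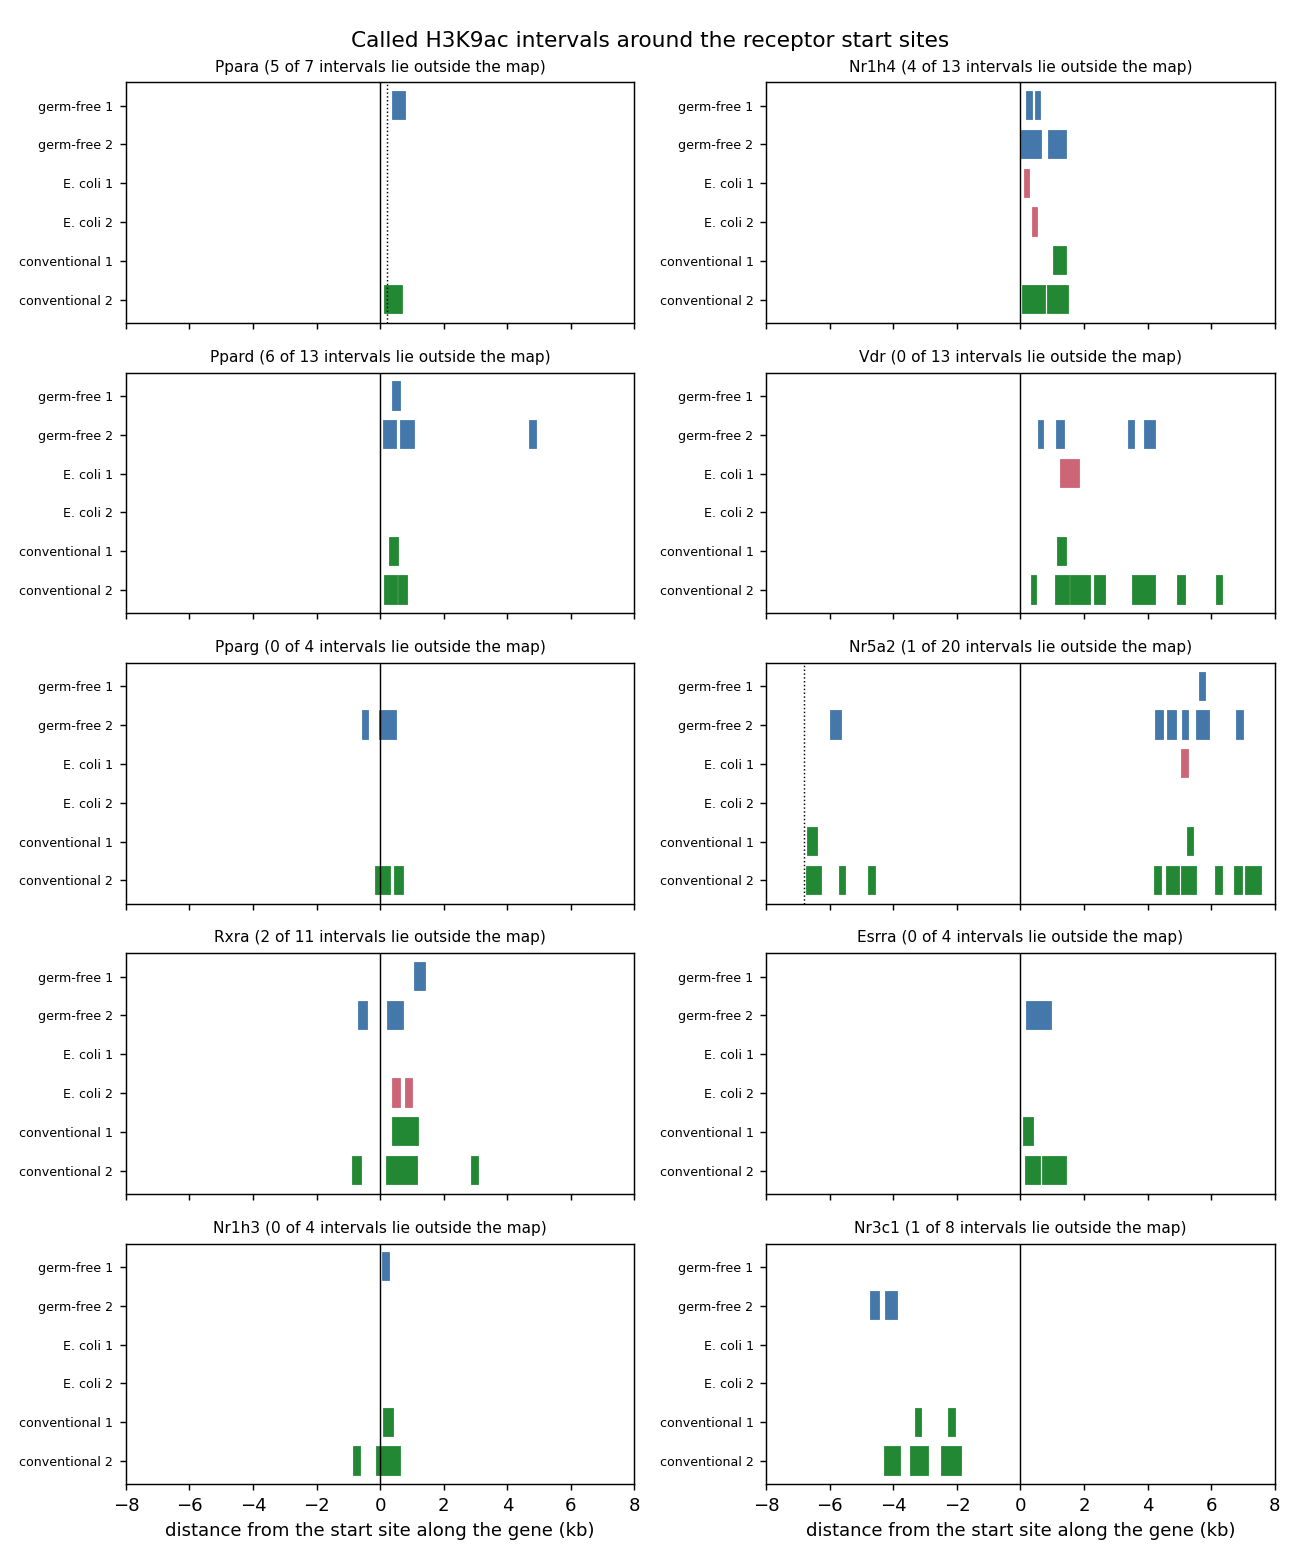
Position of every called interval near the start site of the receptor genes, by library. The horizontal axis is distance in kb from a start site of the authors' annotation along the direction of transcription, a dotted line is a second start site, each bar is 1 interval, and intervals beyond the axis are counted in each title; at Nr5a2 the intronic cluster is seen in 5 libraries, and at Rxra 2 libraries have a bar on either side of the start site.

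The 3 PPAR genes encode fatty acid receptors: PPARα and PPARδ act in fatty acid oxidation, and PPARγ is known from fat storage and from the colon epithelium. Ppard was called in both germ-free and both conventional libraries and in neither E. coli-monoassociated library. Its highest pileup was 11 and 10 extended reads in the germ-free libraries (6.93- and 6.97-fold) and 13 and 15 in the conventional ones (9.91- and 11.6-fold). The strongest interval ranked at or above 86.5%, 84.2%, 95.3% and 97.3% of its list, in that order. All 4 libraries shared the region chr17:28232876-28233808, which starts 122 bp downstream of the start site chr17:28232754.

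Away from its promoter, Ppard held 5 intronic intervals in conventional replicate 2 that began 45781 to 50306 bp downstream, with pileups of 6 and 7. Germ-free replicate 1 listed 1 interval in that stretch, chr17:28280441-28280668, at the lowest pileup of its list (6). An interval in that cluster was thus seen in 2 of 6 libraries. Germ-free replicate 2 and both conventional libraries also had an interval inside the Ppard RefSeq span that the authors tied to 1810013A23Rik. The start site of that gene, chr17:28271708, is nearer to the cluster than that of Ppard.

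Ppara was called in both germ-free libraries and in conventional replicate 2, but the germ-free calls lay in different places. Germ-free replicate 1 listed 1 interval 392 bp downstream of the start site chr15:85735564 (chr15:85735956-85736330, pileup 10, 6.35-fold). Conventional replicate 2 listed 1 over a second start site close by, chr15:85735776 (chr15:85735709-85736242, pileup 9, 7.24-fold). Germ-free replicate 2 listed 5 intervals, all 8476 to 41668 bp inside the gene and none near the start site, the highest at 36827 bp (pileup 11, 7.60-fold). No position of Ppara was therefore called in both germ-free libraries.

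Pparg was called in the 2 longest lists alone, 1 germ-free and 1 conventional. Germ-free replicate 2 listed an interval from 2 bp downstream of the start site (chr6:115361223-115361731, pileup 11, 7.60-fold) and a weaker one 400 bp upstream (pileup 6). Conventional replicate 2 listed 1 over the start site (pileup 6, 5.07-fold) and 1 at 458 bp (pileup 5). Its 4 intervals were all within 1 kb.

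Nr1h3 encodes LXRα, an oxysterol receptor that controls cholesterol efflux genes. It was called in germ-free replicate 1 (pileup 8, 5.19-fold) and in both conventional libraries (pileup 7 each, 5.66- and 5.79-fold). The 3 libraries shared the region chr2:91194416-91195123 at its start site chr2:91195035 on the minus strand. Conventional replicate 2 added an interval 639 bp upstream (pileup 6). Germ-free replicate 2, the longest list, had none tied to Nr1h3, although it and conventional replicate 2 had intervals inside the gene's RefSeq span that the authors tied to the neighbouring Acp2 (chr2:91202303-91202719, 6.33-fold, in germ-free replicate 2).

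Vdr, the vitamin D receptor gene, was called in 4 libraries, mostly inside its introns. The highest pileup was 7 in germ-free replicate 2 (5.07-fold), 8 in E. coli-monoassociated replicate 1 (5.33-fold), 6 in conventional replicate 1 (4.95-fold) and 12 in conventional replicate 2 (9.41-fold). All 4 libraries shared the region chr15:97906094-97907188, on the minus strand 1108 bp or more downstream of the start site chr15:97908296. Germ-free replicate 2 listed 4 intervals and conventional replicate 2 listed 7. Only these 2 libraries had a Vdr interval within 1 kb of the start site, and their pileups there were 5 and 6.

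Esrra encodes ERRα, an orphan receptor that drives genes of mitochondrial energy metabolism. Its highest pileup was 8 in germ-free replicate 2 (5.70-fold), 9 in conventional replicate 1 (7.08-fold) and 15 in conventional replicate 2 (11.6-fold). All 4 of its intervals fell in 1 region downstream of its start site, chr19:6920387-6921685. Germ-free replicate 1 and both E. coli-monoassociated libraries listed none.

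Nr3c1, the glucocorticoid receptor gene, had no interval within 1 kb of the start site that the authors used (chr18:39487245, minus strand). Its highest pileup was 6 in germ-free replicate 2 (4.43-fold), 7 in conventional replicate 1 (5.66-fold) and 14 in conventional replicate 2 (10.9-fold). The 7 intervals classed as upstream began 1867 to 4459 bp before that start site, where the RefSeq span of the gene (39410545 to 39519421) still continues, since RefSeq places the gene's first base farther upstream. Conventional replicate 2 also listed an intergenic interval beyond the other end of the gene.

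Around the start sites the intervals of the receptor genes lay mostly downstream. Of the 42 intervals within 1 kb, 35 lay wholly downstream of the start site, 4 wholly upstream and 3 over it. For all genes 66.3% of 25314 such intervals lay downstream, 23.1% upstream and 10.6% over the start site. The 3 that covered a start site were those of Ppara, Pparg and Nr1h3 in conventional replicate 2. Base by base, 22 of the 42 intervals (52.4%) covered the position 400 bp downstream, against 37.6% of intervals of all genes, and 7.14% against 10.6% covered the start site itself. Receptor intervals of 1 gene are not independent of each other, since the same gene recurs across libraries, and no test was made of these shares.

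**Figure D3:**
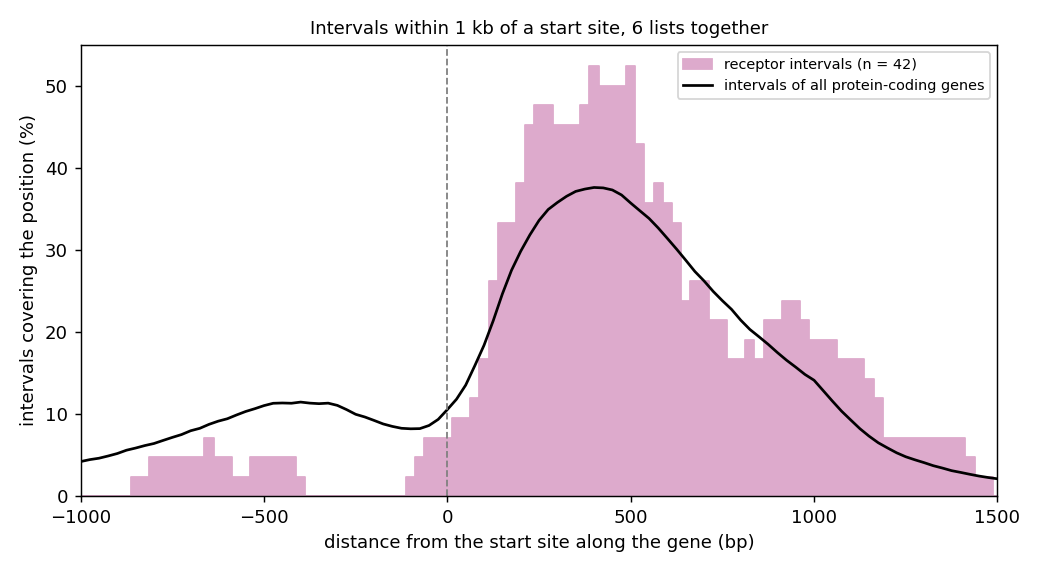
Share of intervals within 1 kb of a start site that cover each position, in percent, against distance from the start site in bp (positive is downstream). The filled outline of the receptor genes (42 intervals) reaches 52.4% at 400 bp downstream, and the line of all protein-coding genes (25314 intervals) reaches 37.6% there; at the start site the values are 7.14% and 10.6%.

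The promoter windows, which end 50 bases after the start site, were accordingly almost free of intervals. Of the 9 windows at start sites used in the lists, 2 overlapped an interval, those of Nr1h3 (138 bp) and Ppara (117 bp), both in conventional replicate 2. None of the 4 windows printed above overlapped an interval in any list. The nearest interval downstream began 60 bp from the start site at Nr1h4, 122 bp at Ppard, 225 bp at Rxra and 117 bp at Nr5a2, and Rxra also had the 2 intervals upstream of its window.

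The question the housing groups put is whether receptor genes carried called H3K9ac with one microbial state and not with another. In all, 5 receptor genes were called in both germ-free libraries, and 2 of them, Ppara and Ppard, in neither E. coli-monoassociated library. Over all genes, 62.5% of the 2735 called in both germ-free libraries were in neither E. coli-monoassociated library. Of the 8 receptor genes called in both conventional libraries, 4 (Esrra, Nr1h3, Nr3c1 and Ppard) were in neither E. coli-monoassociated library, where the share over all genes was 57.5% of 2285. With 5 and 8 genes these counts are near the share of all genes. Both contrasts use the same E. coli-monoassociated libraries, and Ppard was the gene in both sets.

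No receptor gene (0) was called in both germ-free libraries and neither conventional one, a pattern of 2.71% of all genes called in both germ-free libraries. None (0) was called in both conventional libraries and neither germ-free one either, against 2.76% of genes. Nr1h4 was the receptor gene called in both E. coli-monoassociated libraries. It was also in the other groups, so 0 receptor genes were in both E. coli-monoassociated libraries and neither germ-free one (0.0% of 380 genes) or neither conventional one (1.05%). The E. coli-monoassociated calls of single libraries were Rxra in replicate 2 and Vdr and Nr5a2 in replicate 1.

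**Figure D4:**
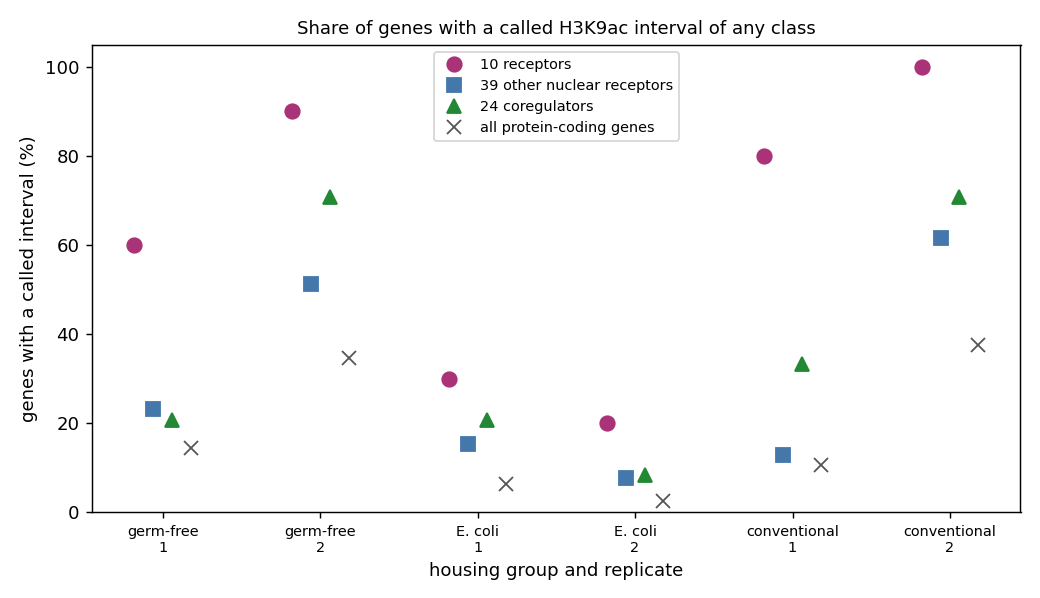
Percent of the 10 receptor genes, of 39 other nuclear receptor genes, of 24 coregulator genes and of all protein-coding genes with a called interval, by library. The receptor genes lie above all genes in each library, and so do the other nuclear receptor genes and the coregulator genes. The receptor genes and all genes are lowest in the E. coli-monoassociated libraries, at 3 and 2 of 10 receptor genes against 6.45% and 2.58% of all genes.

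By number of libraries, Nr1h4 was called in 6, Rxra and Nr5a2 in 5, Ppard and Vdr in 4, Ppara, Nr1h3, Esrra and Nr3c1 in 3, and Pparg in 2. Of the 9700 genes with any interval, 3.53% were called in all 6 libraries, 8.8% in 5 or more, 18.9% in 4 or more and 37.3% in 3 or more. Of the 10 receptor genes, 1, 3, 5 and 9 reached these numbers. The 97 intervals merged into 50 regions, of which 27 were called in 1 library, 15 in 2, 3 in 3, 3 in 4 and 2 in 5. All 27 regions of 1 library came from the 2 longest lists. For 6 of the 10 genes (Rxra, Ppard, Pparg, Nr1h3, Vdr and Esrra) 1 merged region held intervals of every library that called the gene. For Nr1h4, Nr5a2, Ppara and Nr3c1 it held intervals of all but 1 of them. The regions with intervals of 5 libraries were those of Rxra and Nr1h4 described above, where no position was called in all 5. Regions of all genes were not counted in this way, so these counts do not show if receptor genes differ from other genes.

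The genes with the most similar ranks across the 6 libraries were found by the mean absolute difference of the rank percentile of the strongest interval (0 where there was none). For Ppard these were Mtdh (1.75 percentile points) and Fam204a (2.14), and for Nr5a2 Brox (3.14) and 4933434E20Rik (3.83). For Nr1h4 they were Fos (3.34) and Rhoa (4.3), for Vdr Lrrc59 (4.95) and Zfp709 (5.85), and for Rxra Cdc42 (8.42) and B4galt1 (8.76). Ranks within a list depend on its length, and these values describe likeness over 6 libraries only.

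Among 39 other nuclear receptor genes, 9 and 20 were called in germ-free mice, 6 and 3 in E. coli-monoassociated mice and 5 and 24 in conventional mice. Hnf4a, a regulator of epithelial identity, and Nr1d1, a clock repressor, were called in all 6 libraries, and Hnf4g and Nr1i2, the xenobiotic receptor gene, in 5. Of 24 coregulator genes, 5 and 17, 5 and 2, and 8 and 17 were called in the same order. Ep300, which encodes a histone acetyltransferase, and Nrip1, which encodes a corepressor, were called in all 6 libraries, the corepressor gene Ncor1 in 5 and the coactivator gene Ncoa2 in 4. Of 20 genes that supply or clear receptor ligands, 3 and 7, 1 and 2, and 3 and 8 were called, with the fatty acid carrier gene Fabp2 in all 6 libraries, the bile acid carrier gene Fabp6 in 4, and Cyp27a1 and Sult2b1 in 3.

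The textbook target genes of the receptors were uneven. Of 24 PPAR targets, 8 and 16 were called in germ-free mice, 4 and 4 with E. coli alone and 6 and 15 in conventional mice. Fabp2 and the fatty acid oxidation genes Hadha, Hadhb and Cpt2 were called in all 6, where Hadha and Hadhb share 1 promoter and cannot be told apart. Fabp2, Hnf4a, Nr1d1 and Ncor1 above, and Abcg5, Slc51b, Hes1, Atp5b, Cycs and Klf9 below, also had an interval in at least 1 list that carried a second gene's name, so those calls may belong to a neighbour. Of 15 LXR targets, with Nr1h3 itself among them, 2 and 8, 1 and 1, and 5 and 7 were called, led by Smpdl3a (5 libraries) and by the sterol and phospholipid genes Abcg5, Npc1l1 and Lpcat3 (3 each). Of 10 FXR targets 5 and 5, 1 and 2, and 4 and 7 were called. They included Slc51a and Slc51b, which encode the basolateral bile acid exporter, in 6 and 4 libraries, while Fgf15, the intestinal hormone gene of the bile acid feedback loop, and the repressor gene Nr0b2 were called in 0.

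Of 12 VDR targets 1 and 4, 2 and 0, and 1 and 4 were called, with the calcium pump gene Atp2b1 in 5 libraries and Cldn12 and Cldn2 in 2. Of 10 LRH-1 targets 0 and 3, 0 and 0, and 0 and 2 were called, with Hes1 and Myc in 2 libraries each. Of 15 ERR targets 8 and 10, 3 and 1, and 4 and 12 were called, with the ATP synthase gene Atp5b in 6 libraries and the cytochrome c gene Cycs in 5. Of 12 glucocorticoid receptor targets 4 and 11, 2 and 1, and 3 and 9 were called, with Sgk1 and Klf9 in 5. These counts are descriptions of the lists, to be read against the shares of all genes given above. The 2 E. coli-monoassociated lists were the shortest of the 6, and the counts of these lists were not recomputed at equal list length.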

How the data were processed

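H3K9ac chromatin immunoprecipitation libraries of 6 samples (3 groups of 2) were analysed from the deposited peak lists. Per the labels, they were ThruPLEX libraries read as single-end 50 bp reads to a depth of 20 M reads. The submitters' processing notes name MACS2 2.1.1.20160309, Bowtie 1.2.0 and the build mm10. Calling options and any input control were not given in the sources used here. Peaks were listed per library, not on pooled samples.

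In the deposited lists the authors give the pileup at the summit (a coverage signal), the −log10 p-value and q-value, and the fold enrichment (a ratio). The deposited list of germ-free replicate 2 has fewer cells than header names and lacks the pileup. Its columns were told apart by their values, and the pileup was worked out from the spacing of the fold values. Lines that repeated an interval for another summit were merged. Mitochondrial lines were left out of gene counts. The number of reads used per library is not known here. A pileup of a few reads is imprecise, so 95% exact Poisson intervals are given, which cover counting error only.

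Of 10621 gene names, 10567 matched the RefSeq table of GRCm38.p6 and 54 did not. A gene was called in a library when at least 1 interval carried its name. A rank percentile is the percent of a list's intervals with a −log10 p no higher. Calls were set beside the share of all protein-coding genes, with no test. Merging, calling and counting were tested on simulated data. The 10 receptor genes and the 13 gene lists were chosen with earlier results of these data known. From each list up to 4 genes in the most libraries were named, ties by mean rank percentile. The immune and stromal markers named were those with an interval in any list. Genes named beyond that rule were chosen after their values were seen: Fgf15, Nr0b2, Acp2 and 1810013A23Rik. Most alike genes were sought for receptor genes called in 4 or more libraries, 2 for each. The printed promoters were those of the 4 receptor genes off chromosome 18 with an interval within 1 kb in the most libraries, ties by mean rank percentile. Alternatives were a 1 kb and a 2.5 kb window, a −log10 q of 5 or more, a fold of 5 or more, the strongest 870 intervals of each list, merged regions with any or with 100 bp overlap, and leaving out each library. The tools were pandas 2.3.3, SciPy 1.17.1, NumPy 2.4.6 and matplotlib 3.10.9 under Python 3.11.15.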

Additional observations from a re-analysis of the deposited data

How the results depend on the processing

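The 7 counts of receptor genes by housing pattern were recomputed under each alternative, and the cause of each change was not tested unless stated. The share of all genes with each pattern is given at the main setting only. The counts under the alternatives therefore stand without such a share and do not show if receptor genes differ from other genes. Receptor genes in both germ-free libraries and no E. coli-monoassociated one numbered 2. They numbered 1 (Ppard) within 1 kb and within 2.5 kb, 3 at a −log10 q of 5 or more (Nr1h4 joined) and 2 at a fold of 5 or more. Shared regions gave 2 (Nr5a2 and Ppard) with any overlap and 1 (Nr5a2) with 100 bp overlap. The count was 0 when the strongest 870 intervals of each list were kept. It was 3 to 5 with 1 library left out (5 without germ-free replicate 1). Those in both conventional and neither E. coli-monoassociated library numbered 4. They numbered 4 within 1 kb (Nr5a2 in place of Nr3c1), 5 within 2.5 kb (Nr5a2 joined) and 4 at a fold of 5 or more. At a −log10 q of 5 or more they numbered 3 (Esrra, Nr5a2 and Ppard). Shared regions with any or with 100 bp overlap gave 6 (Nr1h4 and Nr5a2 joined). The count was 2 (Esrra and Ppard) at equal numbers and 4 to 6 with 1 library left out. Those in both germ-free and neither conventional library numbered 0, then 1 (Nr5a2) by shared regions with any or with 100 bp overlap, and 0 to 1 with 1 library left out (Ppara without conventional replicate 2). Those in both conventional and neither germ-free library numbered 0, then 1 (Nr3c1) within 2.5 kb, 2 (Esrra and Nr5a2) at a −log10 q of 5 or more, 1 (Nr3c1) at a fold of 5 or more, 2 (Esrra and Rxra) at equal numbers, 2 (Nr3c1 and Nr5a2) by shared regions with any or with 100 bp overlap, and 0 to 3 with 1 library left out (3 without germ-free replicate 2). Both patterns that start from the E. coli-monoassociated libraries were 0 under every alternative run. Receptor genes in all 6 libraries numbered 1 (Nr1h4), then 0 within 1 kb, at a −log10 q of 5 or more, at a fold of 5 or more, at equal numbers and by shared regions with any or with 100 bp overlap, and 1 to 2 with 1 library left out (Rxra joined without E. coli-monoassociated replicate 1, Nr5a2 without replicate 2). An alternative chosen after seeing the data left out the 2 longest lists, germ-free replicate 2 and conventional replicate 2. Without them 1 receptor gene (Ppara) was in the germ-free and no conventional library, and 3 (Esrra, Nr3c1 and Vdr) were in the conventional and no germ-free library. No paired analysis was possible because the results come from no test. Each list has a floor: a gene at a pileup below the lowest of its list, 4 to 6 extended reads, is not listed. What set these floors was not tested.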
